A study of Mus musculus with 26 samples.

Results

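The expression profile of islets from 56-week-old mice was compared between islets that had been kept in culture at 5.5 mM glucose and islets taken fresh, over all genes on the array. The comparison uses 4 arrays of the 26 in the series, chosen by their titles alone: replicates 1 and 2 of old islets at 5.5 mM and replicates 1 and 2 of fresh old islets. All islets came from wild-type male C57/Bl6J mice. The cultured islets recovered for 1 day in RPMI medium with 11 mM glucose, 10% serum and antibiotics and then spent 2 days at 5.5 mM, whereas the fresh islets had neither step. The other old groups, at 3 mM and 11 mM with 2 arrays each, had the same recovery and the same 2 days. Total RNA (50 ng) was amplified through 2 cycles of cDNA synthesis and measured on 3'-biased Affymetrix arrays. The replicates are labelled biological, but how many mice each one pooled is not given. The p-values below come from a main fit whose spread is pooled over all 26 arrays, not from the 4 arrays alone. They speak only for the variation among those samples, which may be technical. The difference between the groups joins the time out of the animal, the recovery step, the medium and the glucose concentration, and these cannot be told apart from the 4 arrays.

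Islets are clusters of endocrine cells (insulin-secreting beta cells, with glucagon-secreting alpha and somatostatin-secreting delta cells) that are threaded by capillaries and hold resident macrophages. They lie within exocrine tissue whose acinar cells make digestive enzymes, and isolation by enzymatic digestion leaves some of that tissue attached. Digestion and handling are known to switch on immediate early genes in many tissues. In beta cells glucose enters through the transporter Slc2a2, is metabolised, and drives both insulin secretion and transcription, in part through the glucose-responsive factor ChREBP. When amino acids, glucose or protein folding capacity run short, the factors ATF4 and CHOP (the product of Ddit3) raise genes of amino acid supply and stress.

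Values are MAS5 intensities, linear numbers that the authors scaled to a trimmed mean of 150 on every array, and intensities of different probe sets cannot be set against each other. The array medians were 33 on both 5.5 mM arrays and 38 and 37 on the fresh arrays, so an intensity well under these is near the floor of the array. The 4 arrays belong to the 12 arrays of the series whose Gapdh 5' probe set reads above the 3' one, with ratios of 1.33 to 1.42 at 5.5 mM and 1.14 to 1.34 in fresh islets. One of the fresh arrays stands apart in a hybridization control: the spiked-in cre transcript read 13251 on replicate 1 and 8519 on replicate 2, with 9407 and 9578 at 5.5 mM. Insulin (Ins2) read 4713 and 2688 on the same fresh arrays, a ratio of 1.75 beside 1.56 for the spike. The part of this in the results for bright islet genes was not tested, so values without replicate 1 of fresh islets are given where it matters.

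Culture at 5.5 mM changed 1100 of 12580 genes (8.74%) by limma at an adjusted p under 0.05. Of these, 511 were higher (4.06% of all genes) and 589 lower (4.68%), and 457 (3.63%) differed by at least 2-fold. The falls reached further than the rises: 75 genes fell and 23 rose at least 4-fold, and among the 75 were 21 acinar genes, 8 immediate early genes and 6 endothelial genes. The largest change was -7.76 downwards and 3.92 upwards on the log2(intensity + 16) scale, where the added 16 understates the change of genes near the floor. The median over all genes was -0.02. Leaving out any 1 of the 4 arrays lowered the count to 371 without replicate 1 and 543 without replicate 2 at 5.5 mM, and to 401 without replicate 1 and 534 without replicate 2 of fresh islets. The same 273 genes, 116 higher and 157 lower, passed with all arrays and in each of these 4 fits.

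**Figure D1:**
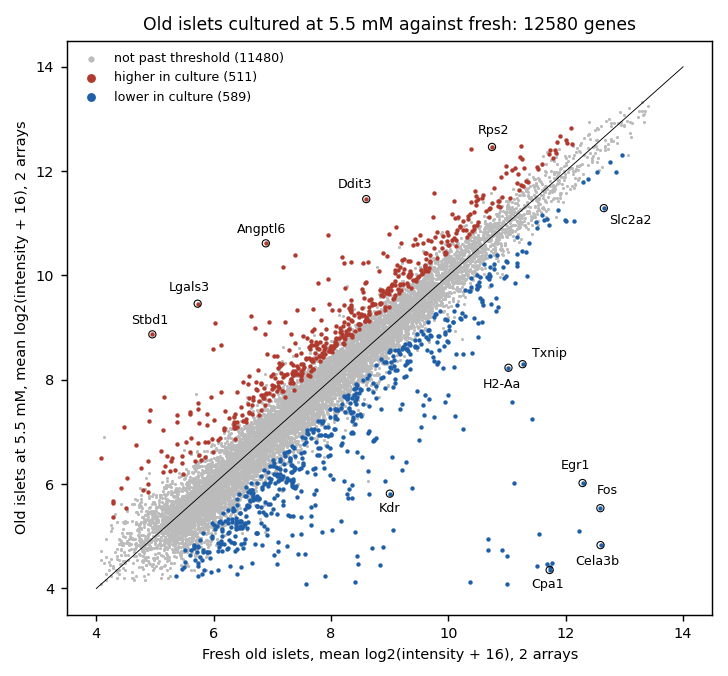
Mean log2(intensity + 16) of each of 12580 genes on the 2 fresh arrays (x axis) and the 2 arrays at 5.5 mM (y axis), with 511 genes higher in culture in red, 589 lower in blue and the line of equality in black. Acinar enzymes such as Cela3b and Cpa1 and the immediate early genes Fos and Egr1 lie at the lower right, bright in fresh islets and near the floor in culture.

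Digestive enzyme transcripts were far lower after culture, many of them near the floor of the arrays. Of the 35 acinar genes listed, 25 passed the level filter, and 22 of these fell, none rose and 3 did not pass the test. The share called was 88%, beside 8.74% of all genes, and the median was -5.09 on the log2 scale beside -0.02 for all genes. Some enzymes could pass the filter only through the arrays where they were bright, so this count describes the list and supports nothing further. Cela3b, a pancreatic elastase, read 5565 and 6827 in fresh islets and 11 and 14 at 5.5 mM. Its log2 change was -7.76 (SE 1.19, adjusted p = 0.000264). Cpa1 and Cpb1, carboxypeptidases that trim dietary peptides, behaved alike. Cpa1 went from 2399 and 4738 to 6 and 3, a log2 change of -7.37 (SE 1.10, adjusted p = 0.000208). Cpb1 went from 2517 and 4588 to 2 and 9, with a log2 change of -7.33 (SE 0.77, adjusted p = 3.22e-06). The zymogen granule lectin Zg16, at 1400 and 2924 in fresh islets, was read at 1 on both cultured arrays. Its log2 change of -6.91 (SE 0.47, adjusted p = 1.53e-08) was -9.98 with an offset of 1 and -5.01 with an offset of 64, so the size depends on the offset and the direction does not. The others among the 15 largest falls of the experiment were Cela2a (log2 change -7.28), the chymotrypsins Ctrb1 (-7.21) and Ctrl (-7.10), the trypsinogens Prss2 (-7.12) and 2210010C04Rik (-6.50), the lipase cofactor Clps (-6.37), the lipases Pnliprp1 (-6.24) and Cel (-6.16) and the granule protein Sycn (-5.95), besides Fos and Egr1. Prss2 and 2210010C04Rik belong to a family of near-identical trypsinogens that the probe sets may not separate. The 3 probe sets of 2210010C04Rik ranged from -8.01 to -1.86. Ctrb1 lost its call without replicate 1 at 5.5 mM (adjusted p = 0.0504) and without replicate 2 of fresh islets (0.0512).

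The amount of exocrine transcript differed between the fresh arrays. The summed intensity of the 25 acinar genes was 31630 on replicate 1 and 60755 on replicate 2, and 699 and 784 at 5.5 mM. Reg1, a secreted lectin made by acinar cells, differed in the same way: 1006 and 2598 in fresh islets against 16 and 14 in culture, a log2 change of -5.72 (SE 0.96, adjusted p = 0.000654). In all, 3 of 4 tested Reg genes fell and none rose, a count of 1 without 5.5 mM replicate 1 or fresh replicate 2. The share of the Reg list called in the main fit was 75%, beside 8.74% of all genes. Antibody transcripts, picked out after their values were seen, were also higher on fresh replicate 2, by a larger factor than the acinar sum. The immunoglobulin A heavy chain gene Igha read 141 on fresh replicate 1, 1801 on fresh replicate 2, and 24 and 14 at 5.5 mM. Its log2 change of -3.95 (SE 0.65, adjusted p = 0.000595) was -2.18 (adjusted p = 0.00459) without fresh replicate 2. For Jchain, which joins antibody chains in plasma cells, the values were 80, 1184, 24 and 13 in the same order, and the log2 change of -3.32 (adjusted p = 0.00743) did not pass without fresh replicate 2 (adjusted p = 0.172) or without 5.5 mM replicate 2 (0.0684). In bulk RNA such as this, fewer cells of a type and less RNA per cell cannot be told apart. Of the 3 acinar genes that did not pass, Bhlha15, a secretory-cell transcription factor, read 341 and 350 in fresh islets and 281 and 261 in culture (adjusted p = 0.713), and Klk1, a kallikrein, read 119 and 211 against 88 and 81 (adjusted p = 0.102). The 4 probe sets of Klk1 ranged from -4.81 to -0.80, and with their mean it passed (-3.68, adjusted p = 0.000261).

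Capillary endothelial transcripts fell as a group. Of 21 tested endothelial markers, 14 fell, none rose and 7 did not pass (66.7% called, beside 8.74% of all genes), with a median of -1.04. Markers dim in culture could pass the level filter through the arrays where they were bright, so this count describes the list. Without 1 array the number that fell was 8 to 10: 9 without either 5.5 mM array, 10 without fresh replicate 1 and 8 without fresh replicate 2. The VEGF receptor Kdr read 539 and 458 in fresh islets and 37 and 44 in culture, a log2 change of -3.19 (SE 0.28, adjusted p = 2.51e-07). Plvap, which forms the diaphragms of fenestrated capillaries, read 667 and 756 against 94 and 105, a log2 change of -2.65 (SE 0.27, adjusted p = 2.65e-06). The sialomucin Emcn went from 821 and 874 to 128 and 152, with a log2 change of -2.47 (SE 0.45, adjusted p = 0.00136). In each of these genes both cultured arrays lay far below both fresh arrays. Btnl9, chosen after its values were seen, was as sharp: 230 and 256 against 18 and 20, a log2 change of -2.89 (SE 0.23, adjusted p = 1.13e-07) that was -1.89 with an offset of 64. Its second probe set gave -1.50. The summed intensity of the 21 markers was 5200 and 5268 in fresh islets and 1240 and 1418 at 5.5 mM. The pericyte gene Rgs5 also fell, from 1270 and 1421 to 343 and 355 (log2 change -1.90, SE 0.21, adjusted p = 7.6e-06), as did Col4a2, a chain of basement membrane collagen, from 229 and 250 to 98 and 121 (-1.03, SE 0.21, adjusted p = 0.00302). The call for Col4a2 was lost without 5.5 mM replicate 1 (adjusted p = 0.065).

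Genes of class II antigen presentation fell in culture. Of 23 tested macrophage and MHC class II genes, 4 fell, 1 rose and 18 did not pass (21.7% called, beside 8.74% of all genes), with a median of 0.32. The 4 that fell were the class II chains H2-Aa, H2-Eb1 and H2-Ab1 and the invariant chain Cd74, which guides class II molecules to their peptides. H2-Aa read 1902 and 2246 in fresh islets and 342 and 236 in culture, a log2 change of -2.79 (SE 0.46, adjusted p = 0.000536). H2-Eb1 read 687 and 772 against 166 and 88, a log2 change of -2.44 (SE 0.32, adjusted p = 5.03e-05). For Cd74 the fresh values of 219 and 256 stood against 92 and 66 (-1.43, SE 0.25, adjusted p = 0.000906). H2-Ab1 fell by 1.88 (adjusted p = 0.00566), without a call when 5.5 mM replicate 2 (0.0644) or fresh replicate 2 (0.0636) was left out. The B cell gene Ms4a1 was also lower, at 60 and 117 in fresh islets and 5 and 8 in culture (-2.16, SE 0.39, adjusted p = 0.00119), and it was 1 of the 2 that fell among 5 tested T and B cell genes (40% called, beside 8.74% of all genes). Its change was -3.53 with an offset of 1 and -1.09 with an offset of 64. With either 5.5 mM array or fresh replicate 2 left out, 1 of the 5 passed.

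The gene that rose in that list was Cd68, a lysosomal glycoprotein of macrophages, from 29 and 47 to 148 and 170 (log2 change 1.71, SE 0.30, adjusted p = 0.000997). Lyz2, the lysozyme of macrophages, read 244 and 349 against 860 and 895, a difference of 1.54. This passed in 4 of 14 alternative settings but not in the main fit (adjusted p = 0.0929, 95% interval 0.38 to 2.69). The complement gene C1qa read 704 and 953 against 749 and 558 and did not pass either (adjusted p = 0.542). Several of the 15 largest rises of the experiment are genes known from activated macrophages. Lgals3, a galectin, rose from 30 and 45 to 554 and 853, by 3.73 (SE 0.48, adjusted p = 3.97e-05). The macrophage elastase Mmp12 rose from 25 and 15 to 173 and 201, by 2.51 (SE 0.43, adjusted p = 0.000943). The glucan receptor Clec7a rose from 46 and 63 to 392 and 387, by 2.53 (SE 0.44, adjusted p = 0.000983). These 3 genes are not made by macrophages alone, and which cells carried them was not tested. Pla2g7, a secreted phospholipase that clears platelet-activating factor, read 10 and 3 in fresh islets and 139 and 104 in culture, a rise of 2.62 (SE 0.44, adjusted p = 0.000644) that was 4.19 with an offset of 1. Hmox1, which breaks down haem, read 6 and 25 against 156 and 156, a rise of 2.52 (SE 0.45, adjusted p = 0.00131) that was 1.48 with an offset of 64. Acp5, the tartrate-resistant phosphatase of phagocytes and osteoclasts, was chosen after its values were seen and rose from 5 and 26 to 134 and 131, by 2.32 (SE 0.36, adjusted p = 0.000307). With an offset of 64 the changes were 1.32 for Acp5, 1.13 for Cd68, 1.58 for Mmp12 and 1.39 for Pla2g7, all still past the threshold. The summed intensity of all 23 macrophage and class II genes was 6959 and 8273 in fresh islets and 7263 and 6815 in culture, so the groups overlapped in this sum. The sum joins members that moved in opposite directions: the 4 class II genes fell, while 16 of the 23 had a positive log2 difference, most of them without passing. It therefore does not show that the members kept their levels.

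**Figure D2:**
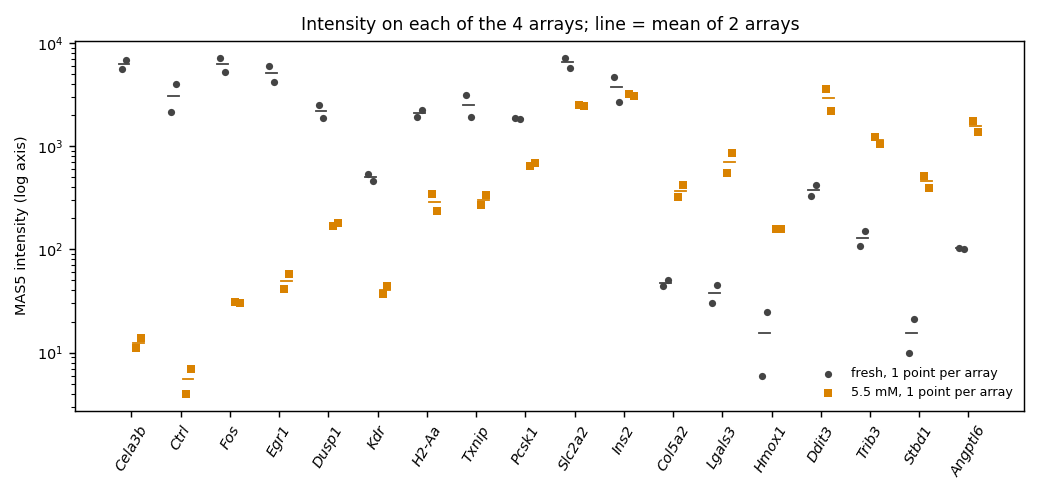
MAS5 intensity (log axis) of 18 genes on each fresh array (grey circles) and each 5.5 mM array (orange squares), with a line at the mean of the 2 arrays. The groups do not overlap in any gene shown but Ins2, whose 2 cultured values lie between the 2 fresh ones.

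Matrix transcripts of mesenchymal cells rose while the pericyte and basement membrane genes above fell. In the list of stellate, fibroblast and mural markers, 8 of 20 tested genes rose, 2 fell and 10 did not pass (50% called, beside 8.74% of all genes), with a median of 0.71. The 2 were Rgs5 and the proteoglycan Dcn, whose adjusted p of 0.0344 was 0.081 to 0.235 without any 1 of the 4 arrays. The number that passed was 7 and 5 without replicates 1 and 2 at 5.5 mM, and 6 and 8 without replicates 1 and 2 of fresh islets. Col5a2, a chain of the collagen that starts fibril formation, rose from 44 and 51 to 323 and 419, by 2.60 (SE 0.25, adjusted p = 6.98e-07). Its second probe set gave 0.94, so the size depends on the probe set. Col3a1, a fibrillar collagen, rose from 174 and 212 to 554 and 734 (1.65, SE 0.28, adjusted p = 0.000755), also with a smaller value of 0.92 on another probe set. The cell adhesion glycoprotein fibronectin, Fn1, rose from 28 and 23 to 127 and 164 (1.95, SE 0.28, adjusted p = 0.000122, or 1.22 with an offset of 64). Mgp, an inhibitor of matrix calcification, rose from 512 and 450 to 1281 and 1349 (1.42, SE 0.27, adjusted p = 0.00212). Summed over the 20 genes, the intensity was 3393 and 3605 in fresh islets and 4088 and 4905 in culture. In the list of basement membrane and matrix remodelling genes 22.7% were called, beside 8.74% of all genes. Among 22 basement membrane and matrix remodelling genes 4 fell and 1 rose, and 2 were left with any 1 of the 4 arrays removed.

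Immediate early genes, which cells transcribe within minutes of a stimulus, were far brighter in fresh islets. Of 37 tested, 18 were lower in culture, 1 was higher and 18 did not pass (51.4% called, beside 8.74% of all genes), with a median of -0.90. Members dim in culture, such as Fosb and Npas4, could pass the level filter through the arrays where they were bright. This count therefore describes the list and supports nothing further. Without replicates 1 and 2 at 5.5 mM 12 and 16 passed, and without replicates 1 and 2 of fresh islets 13 and 14. Many of them are switched on through CREB, which binds the letters TGACGTCA or their shorter core TGACG. The 250 bases before the transcription start were searched for these letters on both strands in RefSeq's GRCm38.p6 promoters, which held 16 of the 18 genes. TGACG was found before 10 of the 16 (62.5%) and before 19.8% of all 27025 genes with such a window, and the full TGACGTCA, each of which also holds TGACG, before 2 of the 16 (12.5%) and 1.77% of all. Both genes with the full letters and Fos are shown because they are among the clearest falls. The stretches are 200 bases long and end at the base before the start, with every TGACG on either strand in capitals, so that the full TGACGTCA shows as 8 capitals.
Fos (chr12:85473690-85473889, plus strand): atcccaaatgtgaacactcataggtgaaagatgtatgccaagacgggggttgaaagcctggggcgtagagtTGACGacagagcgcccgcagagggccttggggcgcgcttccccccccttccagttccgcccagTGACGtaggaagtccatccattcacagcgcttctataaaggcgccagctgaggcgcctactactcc
Dusp1 (chr17:26508473-26508672, minus strand): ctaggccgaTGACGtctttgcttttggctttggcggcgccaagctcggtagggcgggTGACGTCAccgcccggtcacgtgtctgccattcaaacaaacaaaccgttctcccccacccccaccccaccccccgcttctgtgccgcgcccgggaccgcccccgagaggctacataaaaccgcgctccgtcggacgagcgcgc
Btg2 (chr1:134079156-134079355, minus strand): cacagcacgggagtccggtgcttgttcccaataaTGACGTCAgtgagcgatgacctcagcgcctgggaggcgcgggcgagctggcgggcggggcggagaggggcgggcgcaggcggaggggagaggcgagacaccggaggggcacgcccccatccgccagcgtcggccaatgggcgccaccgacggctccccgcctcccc
A match describes the letters and is not a site known to be bound here. Since many genes of this list are known to be switched on through CREB, their higher share could be foreseen. It says nothing on what lowered them here.

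Fos, a subunit of the AP-1 factor, read 7199 and 5258 in fresh islets and 31 and 30 at 5.5 mM. Its log2 change of -7.05 (SE 0.42, adjusted p = 1.67e-09) stood among the acinar enzymes in size. The zinc finger factor Egr1 read 5958 and 4165 against 41 and 58, a log2 change of -6.27 (SE 0.28, adjusted p = 4.47e-11). Dusp1, a phosphatase that switches off MAP kinases, read 2501 and 1860 against 169 and 181, a log2 change of -3.51 (SE 0.25, adjusted p = 2.46e-08). In all 3 genes the 2 fresh arrays were at least 10 times above both cultured arrays, with fresh replicate 1 the higher. The orphan receptor Nr4a1 read 648 and 646 against 34 and 57 (-3.46, SE 0.48, adjusted p = 0.000104). Jun, the partner of Fos, read 1008 and 1174 against 115 and 174 (-2.81, SE 0.44, adjusted p = 0.000311). The growth-arrest gene Btg2 fell less, from 1168 and 993 to 300 and 279 (-1.84, SE 0.15, adjusted p = 1.17e-07). Fosb, at 421 and 271 in fresh islets and 3 and 10 in culture, had a log2 change of -3.99 (adjusted p = 5.17e-08), or -2.52 with an offset of 64. Npas4, a factor that answers calcium entry in excitable cells, read 127 and 111 against 11 and 2, a log2 change of -2.61 (adjusted p = 0.000114) that was -4.32 with an offset of 1 and -1.38 with an offset of 64. The exception was Myc, a growth factor-induced regulator of biosynthesis, which rose from 48 and 29 to 147 and 110 (1.42, SE 0.31, adjusted p = 0.00582), and did not pass without 5.5 mM replicate 1 (0.0989) or fresh replicate 2 (0.0918). With an offset of 64 the rise of Myc was 0.91. The fresh arrays carried 31630 and 60755 of acinar intensity beside these high values, and its part in them was not tested. Of 30 tested cytokine, chemokine and NF-kB target genes 1 rose and 1 fell (6.67%, beside 8.74% of all genes). Both calls were lost without any 1 of the 4 arrays. Under the other settings that kept both arrays of each group, 1 to 11 of the 30 passed. Over all genes those settings called from 952 of 18193 (no filter) to 3014 of 12580 (replicate number as a block).

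Of 28 tested genes under ATF4 and CHOP, 15 rose in culture, none fell and 13 did not pass, with a median of 0.99 beside -0.02 for all genes, and 10 to 13 passed when 1 array was left out (10 without 5.5 mM replicate 1 or fresh replicate 1, 13 without either of the others). In the main fit 53.6% of this list was called, beside 8.74% of all genes. ATF4 and its partners bind composite elements that can be written TGATGNAA. These letters were found, on either strand, before 4 of the 13 risen genes in the promoter table (30.8%: Asns, Chac1, Nupr1 and Vldlr). They were found before 3.91% of all 27025 genes with a window. The list holds genes known as targets of these factors, so a higher share could be foreseen. It says nothing on what raised them here. The promoters of Nupr1 and Chac1, both stress genes that rose, are shown as above, with the letters on the opposite strand in capitals.
Nupr1 (chr7:126625471-126625670, minus strand): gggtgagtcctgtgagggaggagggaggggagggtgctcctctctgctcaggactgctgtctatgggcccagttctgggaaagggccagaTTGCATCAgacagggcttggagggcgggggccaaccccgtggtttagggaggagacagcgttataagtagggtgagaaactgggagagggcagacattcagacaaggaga
Chac1 (chr2:119351042-119351241, plus strand): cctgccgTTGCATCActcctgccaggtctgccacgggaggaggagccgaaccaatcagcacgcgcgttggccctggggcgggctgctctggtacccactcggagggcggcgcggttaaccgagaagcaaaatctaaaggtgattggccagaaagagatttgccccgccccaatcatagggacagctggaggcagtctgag
Ddit3, which encodes CHOP itself, read 331 and 418 in fresh islets and 3571 and 2209 in culture, a rise of 2.86 (SE 0.27, adjusted p = 6.35e-07). Its other probe set gave 1.02. The pseudokinase Trib3, induced by CHOP, rose from 108 and 152 to 1230 and 1047, by 3.00 (SE 0.35, adjusted p = 1.31e-05). Nupr1, a stress-induced chromatin protein, rose from 1270 and 1375 to 6709 and 4420, by 2.03 (SE 0.22, adjusted p = 4.28e-06). Replicate 1 at 5.5 mM was the higher of the pair in all 3. Chac1, which degrades glutathione, rose from 299 and 417 to 897 and 778 (1.21, SE 0.25, adjusted p = 0.00478), with no call without 5.5 mM replicate 1 (0.0728) or fresh replicate 1 (0.0979).

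The rises extended to genes of amino acid supply and translation control. Psph, the last enzyme of serine synthesis, rose from 134 and 155 to 463 and 442, by 1.55 (SE 0.17, adjusted p = 8.23e-06). Eif4ebp1, a repressor of cap-dependent translation, rose from 186 and 225 to 1006 and 824, by 2.07 (SE 0.30, adjusted p = 0.000155), though its probe sets ranged from 0.56 to 2.07. Atf5, a factor tied to mitochondrial stress, rose from 436 and 483 to 1518 and 1220 (1.54, SE 0.27, adjusted p = 0.000943). Hspa9 and Lonp1, whose proteins work in mitochondria, were chosen after their values were seen. The mitochondrial chaperone Hspa9 read 892 and 801 against 3259 and 2848, a rise of 1.83 (SE 0.16, adjusted p = 3.02e-07), with a range of 0.71 to 1.89 over its 4 probe sets. The matrix protease Lonp1 read 248 and 322 against 1288 and 1092, a rise of 2.01 (SE 0.29, adjusted p = 0.000137). Of 25 tested genes of the unfolded protein response 3 rose, 1 fell and 21 did not pass (16% called, beside 8.74% of all genes), with a median of -0.03. The number that passed was 1 without 5.5 mM replicate 1 and 2 without either fresh array. The one that fell was Ero1b, the disulfide oxidase of insulin-making cells, from 8187 and 6624 to 4160 and 3926 (-0.86, SE 0.17, adjusted p = 0.00318). Without fresh replicate 1 its adjusted p was 0.0753, and the mean over its probe sets was -1.41. Among 21 tested NRF2 and antioxidant genes 5 rose and none fell, a count of 1 without 5.5 mM replicate 1 or fresh replicate 1, 2 without 5.5 mM replicate 2 and 3 without fresh replicate 2. The share of the NRF2 list called in the main fit was 23.8%, beside 8.74% of all genes. Of 20 tested hypoxia genes 3 rose and none fell (15%, beside 8.74% of all genes), and calls were lost with any 1 array left out. Under the other settings that kept both arrays of each group, 1 to 6 passed, beside 952 of 18193 to 3014 of 12580 over all genes.

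**Figure D3:**
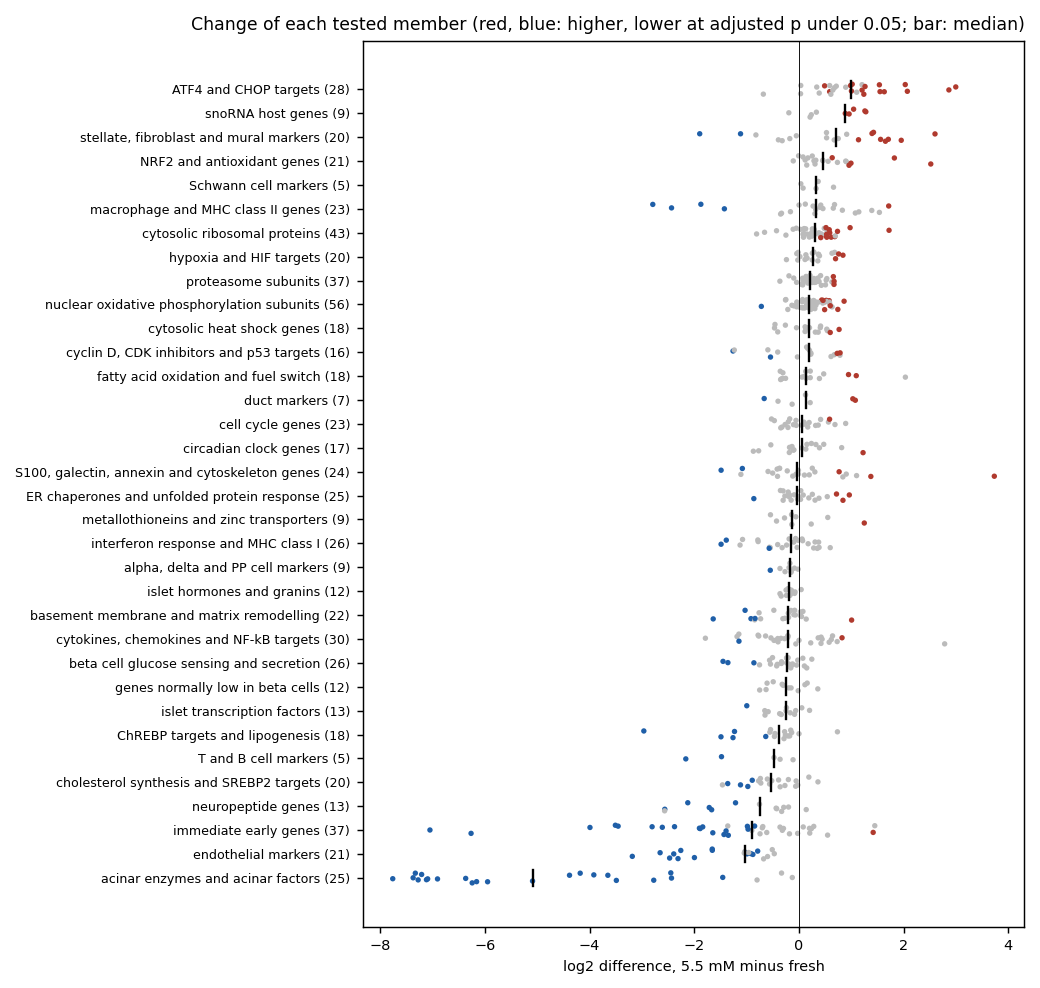
log2 difference (5.5 mM minus fresh) of each tested member of the gene lists with 5 or more tested genes, 1 point per gene, red and blue where the gene passed as higher or lower, with a black bar at the median of each list. Acinar genes span -7.76 to -0.13 with a median of -5.09, and the ATF4 and CHOP list has the highest median at 0.99.

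Few genes of endocrine identity passed the test in the main fit. None of 12 tested islet hormone and granin genes passed by limma (median -0.18), against 8.74% of all genes, while 0 had an unadjusted p under 0.05 and 0 to 2 passed under the other settings. Ins2 read 4713 and 2688 in fresh islets and 3223 and 3083 at 5.5 mM, a log2 difference of -0.17 (95% interval -0.79 to 0.44, adjusted p = 0.807). Glucagon, Gcg, read 12016 and 8346 against 9021 and 9066 (-0.15, interval -0.64 to 0.34, adjusted p = 0.795). Both differences turned positive without fresh replicate 1, to 0.23 for Ins2 and 0.12 for Gcg. Somatostatin, Sst, read 9535 and 7953 against 6607 and 6925 (-0.36, interval -0.74 to 0.01, adjusted p = 0.25). Sst passed in 3 of 14 alternative settings. The groups overlapped for Ins2 and Gcg and did not for Sst. The cre spike was also the higher on fresh replicate 1, and the intervals leave room for changes in either direction for Ins2 and Gcg.

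Of 13 tested islet transcription factors 1 fell, none rose and 12 did not pass (7.69% called, beside 8.74% of all genes, median -0.25). Under the other settings that kept both arrays of each group, 1 to 6 passed. Over all genes those settings called from 952 of 18193 (no filter) to 3014 of 12580 (replicate number as a block). The upper end of the range is thus a larger share of this list than of all genes. The one that fell was the zinc finger factor St18, from 2140 and 1884 to 995 and 1000 (95% interval of the log2 change -1.38 to -0.62, adjusted p = 0.00133). Pdx1, the activator of the insulin gene, read 1214 and 1052 against 704 and 721, a difference of -0.65 that did not pass (interval -1.37 to 0.06, adjusted p = 0.28). The beta cell factor Nkx6-1 read 1707 and 1567 against 1059 and 1015, also -0.65 (interval -1.09 to -0.21, adjusted p = 0.063). In both genes the cultured arrays lay below the fresh ones without reaching the threshold in the main fit. Pdx1 passed in 3 and Nkx6-1 in 5 of 14 alternative settings. Among 26 tested genes of glucose sensing and secretion 3 fell, none rose and 23 did not pass (11.5% called, beside 8.74% of all genes, median -0.23). With the other settings that kept both arrays of each group it was 3 to 10 that passed, again a larger share at the upper end than of all genes. Pcsk1, a convertase that cuts proinsulin, fell from 1855 and 1810 to 639 and 681, by 1.45 (SE 0.18, adjusted p = 3.6e-05). Sytl4, which ties insulin granules to the exocytosis machinery, fell from 2628 and 2442 to 1299 and 1480, by 0.86 (SE 0.15, adjusted p = 0.00117). Slc2a2, the glucose transporter, fell from 7189 and 5715 to 2520 and 2460, by 1.36 (SE 0.37, adjusted p = 0.0266). It passed in 10 of 14 alternative settings. The call for Slc2a2 was lost without any 1 of the 4 arrays: adjusted p was 0.146 and 0.125 without replicates 1 and 2 at 5.5 mM, and 0.197 and 0.0748 without replicates 1 and 2 of fresh islets. Of 12 tested genes that beta cells normally keep low 0 passed by limma, 1 had an unadjusted p under 0.05, and 0 to 2 passed under the other settings.

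Of 18 tested ChREBP and lipogenesis genes 5 fell, none rose and 13 did not pass (27.8% called, beside 8.74% of all genes), with a median of -0.37. Txnip, a thioredoxin-binding protein and a well-known glucose-induced gene of beta cells, read 3123 and 1912 in fresh islets and 266 and 336 at 5.5 mM, a log2 change of -2.96 (SE 0.21, adjusted p = 1.95e-08). The carbohydrate response element, a pair of E-box motifs spaced by 5 bases, was searched on either strand. It was found in 0.326% of genes and in 1 of 3 of the fallen list genes with a promoter window. This was Txnip, from 85 to 69 bases before its start. The list was made of known targets, so the match could be foreseen and says nothing on what lowered Txnip here.
Txnip (chr3:96557757-96557956, plus strand): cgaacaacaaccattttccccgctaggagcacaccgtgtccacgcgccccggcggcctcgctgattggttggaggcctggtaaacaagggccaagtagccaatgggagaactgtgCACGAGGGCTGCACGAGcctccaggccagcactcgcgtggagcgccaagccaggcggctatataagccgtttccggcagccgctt
The desaturase Scd2 fell from 1658 and 1931 to 507 and 773, by 1.49 (SE 0.26, adjusted p = 0.000943), and by 0.88 as a mean over its probe sets. Srebf1, the regulator of fatty acid synthesis, fell from 1001 and 972 to 368 and 458, by 1.23 (SE 0.28, adjusted p = 0.00934), but its adjusted p was 0.126 without 5.5 mM replicate 1 and 0.0778 and 0.0566 without replicates 1 and 2 of fresh islets. The number of the list that passed was 2 without 5.5 mM replicate 1 or either fresh array, and 4 without 5.5 mM replicate 2. Of 20 tested cholesterol synthesis and SREBP2 target genes 4 fell and none rose (median -0.54), with 1 or 2 left when an array was removed: 1 without replicate 1 of either group, 2 without replicate 2 of either. The share of the cholesterol list called in the main fit was 20%, beside 8.74% of all genes. Stard4, a cholesterol carrier, was the clearest of that list, from 204 and 211 to 98 and 77 (-1.12, SE 0.21, adjusted p = 0.0019).

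The largest rises of the experiment held several genes outside these lists. Stbd1, which binds glycogen and brings it to lysosomes, read 10 and 21 in fresh islets and 519 and 394 in culture, a rise of 3.92 (SE 0.28, adjusted p = 2.46e-08). Angptl6, a secreted angiopoietin-like factor, rose from 104 and 101 to 1756 and 1374, by 3.73 (SE 0.22, adjusted p = 1.67e-09). The metalloreductase Steap1 rose from 85 and 83 to 716 and 469, by 2.57 (SE 0.21, adjusted p = 1.17e-07). In each of these the cultured arrays stood at least 5 times above the fresh ones. Gsdma, a gasdermin, rose by 3.05 from 41 and 59 to 454 and 609 (adjusted p = 0.000126), with 1.74 on its second probe set. Car15, a carbonic anhydrase, rose by 3.00 from 122 and 186 to 1278 and 1364 (adjusted p = 5.91e-07). Id2 and Id3 encode partners that block basic helix-loop-helix factors. Id2 rose from 206 and 258 to 1600 and 1884 (2.83, SE 0.23, adjusted p = 9.56e-08), and Id3, chosen after its values were seen, rose from 80 and 98 to 422 and 584 (2.29, SE 0.17, adjusted p = 3.51e-08). The 3 probe sets of Id2 ranged from 0.63 to 2.93, so the size of its rise depends on the probe set. Cyp1a1, the target gene of the aryl hydrocarbon receptor, read 1 on both fresh arrays and 65 and 85 in culture. Its rise of 2.41 (adjusted p = 0.00931) did not pass without any 1 of the 4 arrays: 0.0547 and 0.0769 without replicates 1 and 2 at 5.5 mM, 0.0716 and 0.0602 without replicates 1 and 2 of fresh islets. It was 5.24 with an offset of 1 and 1.09 with an offset of 64.

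Smaller coordinated differences were seen in genes of ribosomes and their small RNAs. Of 43 tested cytosolic ribosomal protein genes 12 rose and none fell (median 0.30), but 3 and 4 passed without replicates 1 and 2 at 5.5 mM, and 4 and 5 without replicates 1 and 2 of fresh islets. The share of this list called in the main fit was 27.9%, beside 8.74% of all genes. Rps2 stood out, from 1557 and 1853 to 5638 and 5631 (1.72, SE 0.18, adjusted p = 3.22e-06). Ribosomal protein genes have many near-identical copies that probe sets may not separate. Of 9 snoRNA host genes, whose introns carry the small nucleolar RNAs that guide modification of ribosomal RNA, 5 rose and none fell (55.6% called, median 0.88). Zfas1 rose from 176 and 211 to 524 and 446 (1.26, SE 0.17, adjusted p = 5.5e-05), and Snhg6 from 361 and 368 to 984 and 834 (1.28, SE 0.19, adjusted p = 0.000247). Without fresh replicate 1, 3 of the 9 passed. Of 56 nuclear oxidative phosphorylation genes 9 rose and 1 fell (median 0.19), with 1 left without replicate 1 of either group and 2 without replicate 2 of either. The share of the oxidative phosphorylation list called in the main fit was 17.9%, beside 8.74% of all genes. Among 13 tested neuropeptide genes 5 fell and none rose (38.5% called, median -0.75). The opioid precursor Pdyn fell from 269 and 329 to 37 and 37 (-2.56, SE 0.42, adjusted p = 0.000509), and 2 of the list passed without 5.5 mM replicate 1 or either fresh array, 1 without 5.5 mM replicate 2. The metal-binding protein Mt2 rose from 2522 and 2291 to 6157 and 5329 (1.25, SE 0.25, adjusted p = 0.00369, or 0.0607 without 5.5 mM replicate 1). Of 16 tested cyclin D, CDK inhibitor and p53 target genes 2 fell and 2 rose, or 2 in all without 5.5 mM replicate 2, with Ccnd1, which drives entry into S phase, down from 959 and 1038 to 473 and 350 (-1.26, SE 0.20, adjusted p = 0.00041). The share of the cyclin D list called in the main fit was 25%, beside 8.74% of all genes. In the cell cycle list 1 of 23 rose and none fell (4.35%, beside 8.74% of all genes), a call lost when any array was left out.

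Which of these differences go with the glucose concentration was asked by setting the islets at 5.5 mM against those cultured in the same way at 11 mM and at 3 mM, which leaves the fresh arrays out. At 5.5 mM against 11 mM 120 genes (0.954%) passed, 63 higher (0.501%) and 57 lower (0.453%). Against 3 mM it was 83 (0.66%), 46 higher (0.366%) and 37 lower (0.294%). The first count was 13 and 65 without replicates 1 and 2 at 5.5 mM, and 53 and 28 without replicates 1 and 2 at 11 mM. The second was 11 and 1 without replicates 1 and 2 at 5.5 mM, and 1 and 30 without replicates 1 and 2 at 3 mM. No member of the acinar (25), endothelial (21) or macrophage and class II (23) lists passed in either comparison, with medians of -0.19, 0.22 and 0.01 against 11 mM and -0.15, 0.10 and 0.04 against 3 mM. At an unadjusted p under 0.05 it was 2, 1 and 1 genes against 11 mM and 1, 1 and 0 against 3 mM. Cela3b read 3 and 58 at 3 mM and 1 and 39 at 11 mM, Kdr 42 and 96, and 39 and 25, and H2-Aa 436 and 181, and 349 and 229. The difference between 5.5 and 11 mM was 0.01 for H2-Aa (interval -0.95 to 0.97) and 0.25 for Kdr (-0.33 to 0.82), beside -2.79 and -3.19 from fresh islets. Fos read 40 and 74 at 3 mM and 59 and 66 at 11 mM, a difference of -0.75 between 5.5 and 11 mM (interval -1.62 to 0.11). Lgals3 read 612 and 997 at 3 mM and 671 and 734 at 11 mM.

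Other genes took different levels at 5.5 and 11 mM. Stbd1 read 71 and 65 at 11 mM, a difference of 2.48 for 5.5 minus 11 mM (SE 0.28, adjusted p = 8.35e-05). Angptl6 read 207 and 214 at 11 mM (5.5 minus 11 mM 2.79, SE 0.22, adjusted p = 1.13e-06), and Steap1 read 96 and 89 (2.46, SE 0.21, adjusted p = 1.42e-06). For these 3 genes the islets at 11 mM lay nearer to the fresh islets than to those at 5.5 mM. Ddit3 read 649 and 864 at 11 mM (1.88, SE 0.27, adjusted p = 0.00127), and Trib3 322 and 381 (1.65, SE 0.35, adjusted p = 0.024). Nupr1 read 1846 and 2018 at 11 mM (1.49, SE 0.22, adjusted p = 0.00163). Of the 28 ATF4 and CHOP genes these 3 passed and 25 did not, and the median difference was -0.03, beside 0.99 from fresh islets. Trib3 did not pass without any 1 of the 4 arrays at 5.5 or 11 mM (adjusted p 0.0999 to 0.3), and Ddit3 and Nupr1 did not pass without 5.5 mM replicate 1 (0.0633 and 0.073). Psph, for example, read 423 and 484 at 11 mM, where the difference was 0.00 (adjusted p = 1).

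Txnip read 1305 and 1037 at 11 mM, a log2 difference of -1.90 for 5.5 minus 11 mM (SE 0.21, adjusted p = 5.24e-05). Against 3 mM, with 364 and 319, its difference of -0.18 (interval -0.61 to 0.25) did not pass. Pcsk1 read 1841 and 1456 at 11 mM (-1.29, SE 0.18, adjusted p = 0.00127), and Sytl4 3246 and 2254 (-0.96, SE 0.15, adjusted p = 0.0032). Both were close to their fresh values at 11 mM. Pdyn read 199 and 279 at 11 mM (-2.25, adjusted p = 0.00861). Sytl4 did not pass without replicate 1 at 5.5 mM (0.11) or at 11 mM (0.0717), and Pdyn not without replicate 1 (0.143) or 2 (0.0669) at 5.5 mM or replicate 2 at 11 mM (0.137). Slc2a2 and G6pc2, the islet glucose-6-phosphatase, differed between 5.5 and 3 mM. Slc2a2 read 817 and 695 at 3 mM, a log2 difference of 1.70 for 5.5 minus 3 mM (SE 0.37, adjusted p = 0.0376). G6pc2 read 1321 and 1585 at 3 mM against 4754 and 5352 at 5.5 mM (1.79, SE 0.27, adjusted p = 0.00489). At 5.5 mM its difference from fresh islets (9312 and 7795) had not passed in the main fit (adjusted p = 0.0917). That difference from fresh islets passed in 5 of 14 alternative settings. Slc2a2 did not pass without any 1 of the 4 arrays at 5.5 or 3 mM (0.188 to 0.312), nor G6pc2 without replicate 2 at 5.5 mM (0.0873) or replicate 1 at 3 mM (0.113). Zfas1 was alone among the genes named here in passing both tests: it read 1347 and 1439 at 3 mM and 223 and 225 at 11 mM (5.5 minus 3 mM -1.50, adjusted p = 0.000289, and 5.5 minus 11 mM 1.06, adjusted p = 0.00291). The second of these was 0.0947 without 5.5 mM replicate 1.

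**Figure D4:**
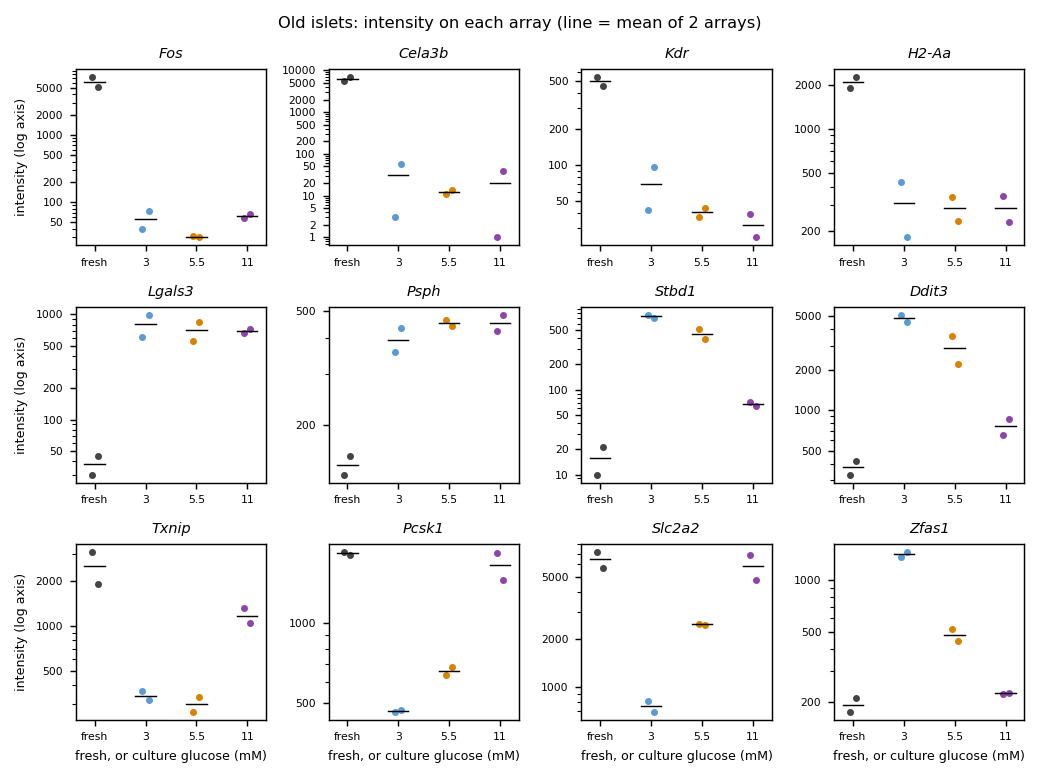
Intensity (log axis, a separate scale in each panel) of 12 genes on each array of old islets, fresh or cultured at 3, 5.5 or 11 mM glucose, with a line at the mean of the 2 arrays. Fos, Cela3b, Kdr and H2-Aa are low and Lgals3 and Psph high at all 3 concentrations, whereas Stbd1, Ddit3, Txnip, Pcsk1, Slc2a2 and Zfas1 take different levels across them.

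The 15 largest falls and 15 largest rises were also read in islets of 5-week-old mice, on arrays outside the 4 of the comparison. These arrays did enter the level filter, the choice of probe sets and the spread of the main fit, so they are not fully independent of the choice of genes. The series holds 2 arrays of young islets at 11 mM (replicates 3 and 4) and 2 of fresh young islets with the same Gapdh ratio range, but none at 5.5 mM, so age and glucose both differ and the values stand side by side without a test. All 15 of the largest falls in old islets had both cultured young arrays below both fresh young arrays, as did 23.6% of all genes, with a range of -6.80 to -3.98. Of the 15 largest rises 14 had both cultured arrays above both fresh ones, as did 22.6% of all genes, with a median of 1.72. The exception was Steap1, at 74 and 95 in fresh and 77 and 79 in cultured young islets. Fos read 4425 and 4553 in fresh young islets and 28 and 39 after culture, and Lgals3 58 and 54 against 382 and 222. Stbd1 and Angptl6 were among the smallest of the young rises, at 0.39 and 0.38.

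**Figure D5:**
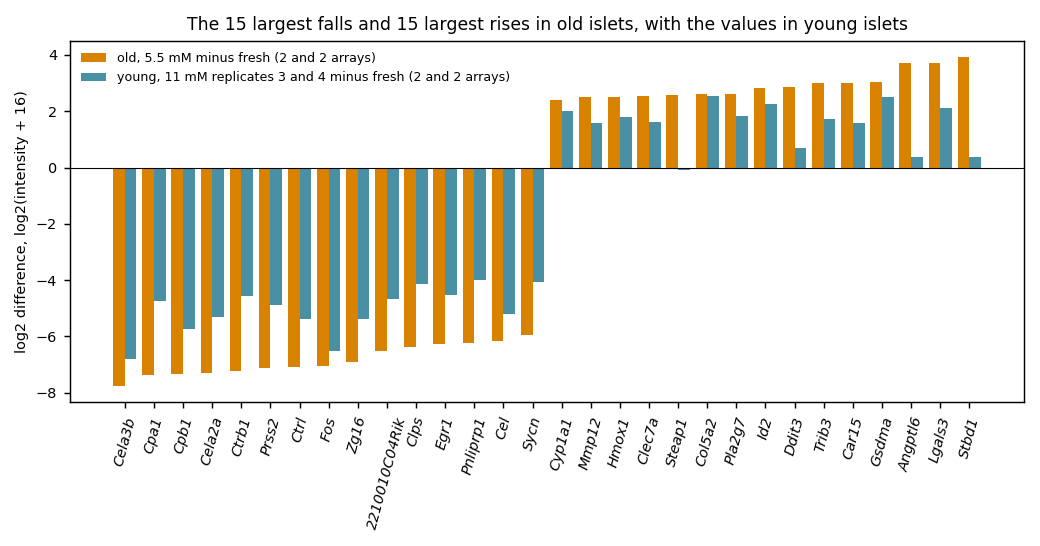
log2 difference of the 15 largest falls and the 15 largest rises in old islets at 5.5 mM minus fresh (orange bars, means of 2 and 2 arrays), beside young islets at 11 mM (replicates 3 and 4) minus fresh (blue-green bars, means of 2 and 2 arrays). The young bars of the falls run from -6.80 to -3.98, and those of Stbd1, Angptl6 and Steap1 are near 0.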

How the data were processed

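The authors deposited MAS5 intensity values (linear, whole numbers, per the series table and the submitters' processing notes) for 45101 probe sets on 26 arrays. No scanner files or detection calls were used here. Control probe sets were left out, 34945 probe sets had 1 gene symbol, 932 several and 9160 none, and 34741 symbols were updated through Entrez IDs. A probe set was kept where 2 or more of the 26 arrays read it higher than their own median, and the brightest of each gene was used (12580 genes). A gene dim in 1 group could thus pass through another group where it was bright, so counts over gene lists describe those lists. log2(intensity + 16) was fitted by group over all 26 arrays with limma 3.58.1 in R 4.3.3 (eBayes with trend, Benjamini-Hochberg adjusted p under 0.05). Intervals are 95% from the same fit. On simulated data for this comparison with 12580 genes, 63 of 100 changes of log2 size 1 and 96 of 100 of size 2 were recovered, with 13 false calls. Depth has no counterpart on arrays, and the 2 arrays per group limit precision.

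The gene lists and members were chosen with earlier results of these data known. Genes named are the 15 largest rises and falls whose groups do not overlap, up to 6 members of each list by smallest p, markers of each cell type, and Gcg, Ins2, Pdx1, Slc2a2, Sst and Txnip; others, with Nr4a1, Jun, Npas4, Myc, Atf5 and Chac1, were chosen after their values were seen. Replicate numbers were not taken to pair samples: deviations of same-numbered old arrays correlated by 0.056 to 0.196. The alternatives were offsets of 1 and 64, no filter, quantile normalization, the mean of probe sets, no trend, fewer arrays, the array set or replicate number as a factor, and each array left out.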

Additional observations from a re-analysis of the deposited data

Results flagged for a closer look

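Genes named above are given here where the level in culture differed between glucose concentrations by the fit's own test, in log2 units with limma's adjusted p. At 5.5 mM minus 11 mM the higher genes were Angptl6 at 2.79 (1.13e-06), Stbd1 at 2.48 (8.35e-05), Steap1 at 2.46 (1.42e-06), Ddit3 at 1.88 (0.00127), Trib3 at 1.65 (0.024), Myc at 1.56 (0.0134), Lonp1 at 1.55 (0.00865), Nupr1 at 1.49 (0.00163), Mt2 at 1.39 (0.00798), Hspa9 at 1.27 (0.000375), Rps2 at 1.09 (0.00427), Snhg6 at 1.07 (0.00798) and Zfas1 at 1.06 (0.00291). The lower genes were Pdyn at -2.25 (0.00861), Txnip at -1.90 (5.24e-05), Pcsk1 at -1.29 (0.00127), Sytl4 at -0.96 (0.0032), Btg2 at -0.91 (0.00427) and Ero1b at -0.74 (0.0437). At 5.5 mM minus 3 mM they were G6pc2 at 1.79 (0.00489), Slc2a2 at 1.70 (0.0376) and Zfas1 at -1.50 (0.000289). With 1 array left out in turn, the calls of Angptl6, Stbd1, Steap1, Hspa9, Txnip and Pcsk1 against 11 mM and of Zfas1 against 3 mM passed each time. Those of Trib3, Ero1b and Slc2a2 passed in none of the 4 fits. The others lost the call in 1 to 3 fits. Btg2, Rps2, Snhg6, Mt2, Myc, Lonp1, Ddit3, Nupr1, Zfas1 and Sytl4 lost it without 5.5 mM replicate 1. Lonp1, Myc, Mt2, Snhg6 and Sytl4 also lost it without 11 mM replicate 1. Lonp1, Myc and Rps2 also lost it without 11 mM replicate 2. Pdyn and G6pc2 lost it as given above. Each group has 2 arrays, too few for a check for single outlying arrays.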

How the results depend on the processing

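The 1100 genes (511 higher, 589 lower) became 2338 (1162, 1176) with old arrays only, 2638 (1283, 1355) with the 4 arrays only, 2142 (1094, 1048) with the array set as a factor and 3014 (1515, 1499) with the replicate number as a block. Left-out arrays gave 371 to 543 (156 to 267 higher, 215 to 297 lower). The other 6 settings stayed within 1.5 times. At 5.5 mM minus 11 mM the 120 genes became 735, 549 and 1170 with old arrays, the array set factor and the replicate block, 453 with the 2 groups alone, and 13 to 65 with an array left out. At 5.5 mM minus 3 mM the 83 became 149 with quantile normalization, 807, 590 and 1268 with old arrays, the array set factor and the replicate block, 926 with the 2 groups alone, and 1 to 30 with an array left out. With an array left out Ins2 ranged from -0.58 to 0.23 and Gcg from -0.41 to 0.12, positive only without fresh replicate 1. Of 81 named genes that passed, 69 passed under all 14 alternatives, and none changed direction. The named genes were mostly chosen for large changes or small p in these same data, so a high share was built in. It does not describe all 1100 genes called. The main fit had no term for the array set. In its 11 mM group of young islets, replicates 1 and 2 had Gapdh ratios of 0.12 and 0.15. Replicates 3 and 4 had 1.26 and 1.03. Arrays correlated by 0.908 to 0.912 between these pairs, and by 0.980 and 0.981 within them. This gap enters the spread of the main fit. The array set factor allows for it, and fits without young arrays do not contain it. Its part in these shifts was not tested, nor was any other cause. A lone array left in a group is assumed to vary like the other groups.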

Other observations

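The counts of the other gene lists stand beside 8.74% of all genes called. Of 7 tested duct markers 2 rose and 1 fell (42.9%), with 1 call without replicate 1 of either group and 2 without replicate 2 of either. No Schwann cell marker (5 tested) and no adipocyte marker (1 tested) passed by limma, and 0 of either had an unadjusted p under 0.05. Of 9 tested alpha, delta and PP cell markers 1 fell and none rose, a call kept only without 5.5 mM replicate 2. Interferon and MHC class I genes, which viruses and cytokines induce, had 3 of 26 lower and none higher. Of 18 tested heat shock genes 2 rose and none fell. Both that rose, Hspd1 (0.60, adjusted p = 0.00943) and Hspe1 (0.77, adjusted p = 0.0189), encode mitochondrial chaperonins. Among 18 fatty acid oxidation genes 2 rose, among 37 proteasome subunits 3 rose, and among 17 circadian clock genes 1 rose, with none lower in these lists. In the list of S100, galectin, annexin and cytoskeleton genes 3 of 24 rose and 2 fell (20.8%). Other settings that kept both arrays of each group gave 1 to 7 heat shock, 2 to 13 proteasome and 3 to 12 S100 list calls. They gave 2 to 10 interferon, 2 to 4 fatty acid oxidation and 0 to 3 clock calls. For lists above it was 3 to 8 unfolded protein response, 3 to 12 NRF2 and 4 to 11 cholesterol calls. For oxidative phosphorylation it was 5 to 19, and for ribosomal proteins 8 to 24. These ranges stand beside 952 of 18193 (no filter) to 3014 of 12580 (replicate number as a block) over all genes. Leaving out any 1 array ended both heat shock calls and the clock call. The interferon list had 1 call without any 1 array, the S100 list 1 or 2, the fatty acid oxidation list 0 or 1, and the proteasome list 0 without replicate 1 of either group and 3 without replicate 2 of either.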
